A study of Mus musculus with 10 samples.

Results

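Tmem119, Cx3cr1, Crybb1, Slc2a5, Siglech, Olfml3, Fcrls, Sparc, Selplg and Golm1 are transcripts of resting, resident microglia, the macrophages of the brain parenchyma. All 10 were looked up by symbol and found in a table of 19782 genes measured by RNA sequencing of hippocampal microglia. The name "surface genes" holds for most of them and not for all: Crybb1 encodes a crystallin, Sparc and Olfml3 encode secreted proteins and Golm1 encodes a protein of the Golgi membrane. They are therefore called homeostatic genes here.

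The libraries fall into 3 groups. The 5xFAD repopulated group (3 libraries) came from 5xFAD mice given chow with PLX3397 at 290 mg/kg from 4 months of age for 1 month and then normal diet for 1 month. The 5xFAD control group (3 libraries) came from 5xFAD mice on normal diet, and the wild-type group (4 libraries) from mice without the transgenes, also on normal diet. 5xFAD mice carry human transgenes driven in neurons by the Thy1 promoter and deposit amyloid early; PLX3397 blocks the CSF1 receptor, whose signal keeps microglia alive. In all groups the cells were sorted as CD45low and CD11b+, and libraries were made by Smart-Seq from 1 ng of RNA. Repopulated wild-type microglia were not analysed here. The labels do not say that each library is a separate animal, so the p-values rest on the spread from library to library, which may be partly technical.

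Resident microglia keep a characteristic set of transcripts under the influence of TGF-beta and CSF1 receptor signalling, with transcription factors such as PU.1, SALL1, SMAD3 and RUNX1. Several of the 10 genes, Tmem119 and Fcrls among them, are used to tell microglia from monocyte-derived macrophages. Near amyloid plaques microglia take on a disease-associated state in which many homeostatic transcripts decline and genes such as Igf1, Apoe and Clec7a are induced. After CSF1 receptor inhibitors are withdrawn, surviving microglia proliferate and refill the brain.

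Library totals ran from 18501136 to 23286814 estimated counts, and 12505 genes passed the filter on low counts, all 10 homeostatic genes among them. The 10 genes held 1.77% to 1.84% of all counts in repopulated libraries, 1.34% to 1.55% in control libraries and 1.79% to 2.23% in wild-type libraries. The control libraries lay below the other 2 groups without overlap. Wild-type 3 stood apart from the other wild-type libraries on the second principal component, at -67 against 20.9 to 52.9. The summed level of 4 Y-linked genes was 5.12 to 16.0 CPM (counts scaled to library size) in control 1, control 3 and wild-type 2, against 342 to 484 CPM in the other libraries. The results below are also given without these 3 libraries where that ends a call.

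The sequences upstream of 2 of the genes are shown first because their fold changes in 5xFAD control against wild-type microglia differed in sign. Crybb1 had the largest fall, and Siglech had a higher mean in control microglia without passing the test. Both are the 250 bases before the transcript start that the RefSeq promoter table uses, read 5′ to 3′ on the + strand of build GRCm38.p6, at chr5:112255570-112255819 for Crybb1 and chr7:55767934-55768183 for Siglech. These starts, 112255820 and 55768184, lie 1257 and 30 bases inside the outermost gene bounds given below, which cover all annotated transcripts. Capitals mark the SMAD motif CAGAC, or its reverse complement GTCTG, the short element bound by the SMAD proteins of TGF-beta signalling.
Crybb1: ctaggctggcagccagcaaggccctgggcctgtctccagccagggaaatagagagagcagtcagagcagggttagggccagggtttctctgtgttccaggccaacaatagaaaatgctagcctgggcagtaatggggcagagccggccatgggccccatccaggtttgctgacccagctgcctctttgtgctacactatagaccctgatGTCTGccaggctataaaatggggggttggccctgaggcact
Siglech: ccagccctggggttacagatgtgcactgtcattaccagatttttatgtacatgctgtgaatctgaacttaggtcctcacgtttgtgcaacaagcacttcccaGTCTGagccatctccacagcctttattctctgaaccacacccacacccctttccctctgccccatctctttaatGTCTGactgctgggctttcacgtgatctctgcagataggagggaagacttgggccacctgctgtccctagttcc
The Crybb1 window held 1 match, 41 bases before that transcript start, and the Siglech window held 2, at 148 and 74 bases before its own. GC content was 58.0% in the Crybb1 window and 50.8% in the Siglech window. Promoter entries existed for 8 of the 10 genes, Tmem119 and Selplg having none. CAGAC or its reverse complement stood in 7 of the 8 windows, all but that of Olfml3, and in 42.1% of all 27025 promoter windows of this length. The RUNX core TGTGGT, searched on both strands like the other motifs, stood in the windows of Cx3cr1, Siglech and Fcrls and in 14.2% of all windows. The PU.1 core GAGGAA stood in the Fcrls window alone of the 8, and in 23.1% of all windows. The TATA box TATAAA stood in those of Crybb1, Fcrls and Golm1, and in 13% of all. These matches are short letter strings and describe the windows only.

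In 5xFAD control microglia 5 of the 10 homeostatic genes fell against wild type, by 1.78-fold to 2.73-fold: Crybb1, Tmem119, Slc2a5, Selplg and Cx3cr1. The other 5, Siglech, Olfml3, Fcrls, Sparc and Golm1, did not pass the test. Of all genes tested, 18.1% were called in this comparison, 8.04% lower and 10.1% higher (1005 and 1260 genes, edgeR's quasi-likelihood test, Benjamini-Hochberg adjusted p under 0.05). The median log2 fold change was -0.52 over the 10 genes and -0.06 over all genes tested. In all 5 fallen genes no control library reached the lowest wild-type library, a separation found for 12.6% of the genes tested. Fewer cells of a type and less RNA per cell cannot be told apart in such bulk samples.

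Among the receptors and other membrane proteins, Tmem119 encodes a transmembrane protein that marks resident microglia (Entrez 231633, chromosome 5, 113793729 to 113800396). Its level was 1141, 1279.8 and 1123 CPM in the repopulated libraries, 596, 547 and 777 CPM in the control libraries, and 1908, 1317, 1337 and 1716 CPM in the wild-type libraries. The 3 groups did not overlap: control was lowest, repopulated next and wild type highest. Tmem119 fell by 1.29 on the log2 scale in control against wild type (SE 0.17, edgeR adjusted p = 0.000137), a 2.45-fold lower level. It rose 1.85-fold in repopulated against control microglia (log2 fold change 0.88, SE 0.18, edgeR adjusted p = 0.0468).

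The rise of Tmem119 was the only call among the 10 genes in that comparison and lay close to the threshold. Of all genes tested, 0.568% were called there, 0.352% higher and 0.216% lower (44 and 27 genes). The call was lost when any of repopulated 1, 2 or 3, control 1 or 2, or wild-type 2 or 4 was left out (edgeR adjusted p 0.0531 to 0.267), while the log2 fold change stayed between 0.78 and 1.05. It was also lost with an offset for GC content and transcript length (log2 fold change 0.51, edgeR adjusted p = 0.0553) and with a term for Y-linked transcript status (edgeR adjusted p = 0.153). Without control 1, control 3 and wild-type 2 it was kept (log2 fold change 1.12, edgeR adjusted p = 0.0372), on control 2 alone, which was assumed to vary like the other groups.

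Cx3cr1 encodes the receptor for fractalkine, the neuronal chemokine CX3CL1 (Entrez 13051, chromosome 9, 120048683 to 120068296). It had 995, 1089 and 1090.0 CPM in repopulated libraries, 884, 922 and 865 CPM in control libraries and 1685, 1265, 1406 and 1997 CPM in wild-type libraries. The repopulated libraries lay in a narrow gap above every control library and below every wild-type library. Cx3cr1 fell 1.78-fold in control against wild type (log2 fold change -0.84, SE 0.16, edgeR adjusted p = 0.00217). Its log2 fold change in repopulated against control was 0.25 (SE 0.17, edgeR adjusted p = 0.45), short of the threshold. Repopulated microglia had a 1.5-fold lower level than wild-type microglia, close to the threshold (log2 fold change -0.59, SE 0.16, edgeR adjusted p = 0.049). That call was lost in 10 of 23 alternatives (adjusted p 0.00239 to 0.235), among them the fits without repopulated 1, 2 or 3, control 1 or 3, or wild-type 1 or 4, and that without control 1, control 3 and wild-type 2 together (edgeR adjusted p = 0.0539).

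Selplg encodes P-selectin glycoprotein ligand 1, a selectin-binding mucin of leukocytes (Entrez 20345, chromosome 5, 113817798 to 113832528). It had 3619, 3657 and 3801 CPM in repopulated libraries, 2215, 1259.8 and 2509 CPM in control libraries and 4032, 3607, 3633 and 4572 CPM in wild-type libraries. Repopulated and wild-type libraries overlapped and every control library lay below both, with control 2 the lowest. Selplg fell 1.99-fold in control against wild type (log2 fold change -0.99, SE 0.20, edgeR adjusted p = 0.00367). Repopulated libraries were 1.85-fold above control on average without passing the test (log2 fold change 0.89, SE 0.21, edgeR adjusted p = 0.0727). That difference passed in 8 of 23 alternatives (adjusted p 0.00143 to 0.284), among them the fits without control 3 (edgeR adjusted p = 0.0414) and without wild-type 3 (0.0398). The 8 include the fit without control 1, control 3 and wild-type 2 (log2 fold change 1.56). That fit rested on control 2 alone, the control library with the lowest level of Selplg.

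Siglech encodes a sialic acid-binding lectin that separates microglia from other brain macrophages (Entrez 233274, chromosome 7, 55768154 to 55779448). It had 3385, 3237 and 3583 CPM in repopulated libraries, 4072, 5238 and 4165 CPM in control libraries and 3833, 3379, 3465 and 2757 CPM in wild-type libraries. It was the only gene of the 10 whose control libraries all lay above every wild-type library, a separation found for 14.1% of the genes tested. The test missed the threshold in control against wild type (log2 fold change 0.42, SE 0.15, edgeR adjusted p = 0.0726), although the difference passed by DESeq2 (adjusted p = 0.0137). Every repopulated library lay below every control library, as in 15.7% of the genes tested, with a log2 fold change of -0.40 (SE 0.16, edgeR adjusted p = 0.213).

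Fcrls encodes an Fc receptor-like scavenger receptor (Entrez 80891, chromosome 3, 87250736 to 87263765). Its levels were 2759.9, 2620.2 and 2789 CPM in repopulated libraries, 3128, 2219 and 3430.3 CPM in control libraries and 2595, 2734, 2332 and 2640.2 CPM in wild-type libraries. The control libraries spread on both sides of the other groups. The log2 fold change was 0.18 in control against wild type (SE 0.16, edgeR adjusted p = 0.445) and -0.10 in repopulated against control (SE 0.17, edgeR adjusted p = 0.788).

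Slc2a5, the fructose transporter GLUT5 (Entrez 56485, chromosome 4, 150119344 to 150144168), is the only transporter in the set. It had 479, 529.8 and 536 CPM in repopulated libraries, 334, 266 and 364 CPM in control libraries and 748, 614, 483 and 745 CPM in wild-type libraries. Wild-type 3 lay within the repopulated range, so these groups overlapped, and the control libraries lay below both. Slc2a5 fell 2.02-fold in control against wild type (log2 fold change -1.01, SE 0.17, edgeR adjusted p = 0.000778). Its log2 fold change of 0.68 (SE 0.18) in repopulated against control missed the threshold at an edgeR adjusted p of 0.0806, and without wild-type 3 it passed (edgeR adjusted p = 0.0298), as it did with DESeq2 and with the compared groups alone.

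Crybb1 encodes beta-B1 crystallin, best known as a structural protein of the lens (Entrez 12960, chromosome 5, 112254563 to 112269585). It had 56.8, 61.9 and 47.7 CPM in repopulated libraries, 44.7, 37.7 and 46.3 CPM in control libraries and 116, 92.2, 120.3 and 140.2 CPM in wild-type libraries. Every repopulated library lay above the control libraries by a small margin and far below the wild-type libraries. Crybb1 fell 2.73-fold in control against wild type (log2 fold change -1.45, SE 0.16, edgeR adjusted p = 2.44e-05). In repopulated against control the log2 fold change was 0.37 (SE 0.17, edgeR adjusted p = 0.25). It was 2.11-fold lower in repopulated than in wild-type microglia (log2 fold change -1.08, SE 0.16, edgeR adjusted p = 0.000678).

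Of the genes for secreted and Golgi proteins, Sparc encodes a secreted matricellular protein (Entrez 20692, chromosome 11, 55394159 to 55420080) and averaged 2582 ± 92.8 CPM in repopulated, 2279.5 ± 128 CPM in control and 2382 ± 203 CPM in wild-type libraries (SD, n = 3, 3 and 4). Olfml3, a secreted olfactomedin-like protein (Entrez 99543, chromosome 3, 103735394 to 103738001), averaged 1732 ± 114, 1491 ± 203 and 1570.3 ± 156 CPM in repopulated, control and wild-type libraries. Golm1 (Entrez 105348, chromosome 13, 59634996 to 59675784) averaged 860.4 ± 29.7, 788 ± 49.2 and 913 ± 67.2 CPM in the same order. None of the 3 passed the test in any of the 3 comparisons. Their log2 fold changes in control against wild type were -0.06, -0.07 and -0.21 for Sparc, Olfml3 and Golm1 (SE 0.13, 0.14 and 0.12), and with the offset for GC content and length those of Sparc and Olfml3 were 0.04 and 0.10.

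**Figure D1:**
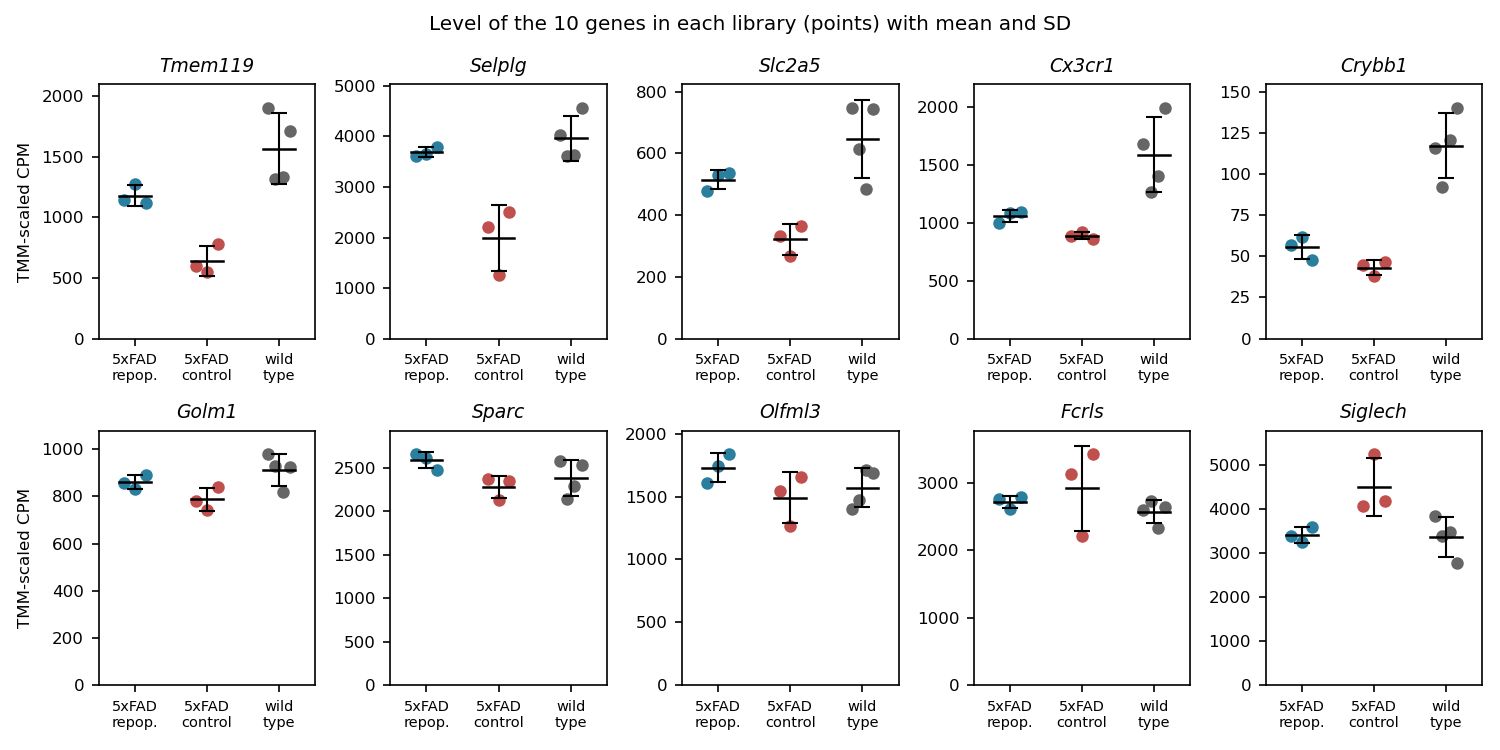
Level of each of the 10 genes in TMM-scaled CPM (vertical axis, starting at 0), by library (points), for 5xFAD repopulated (n = 3), 5xFAD control (n = 3) and wild-type (n = 4) microglia, with horizontal bars for the mean and whiskers for the SD. In the upper row the control libraries lie below every wild-type library, and Siglech at lower right shows the opposite order.

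These fold changes are on counts scaled by the trimmed mean of M-values (TMM). On the deposited TPM, which are scaled to transcript length and library size, compared with limma on log2(TPM + 1) after the counts had been seen, the median of all genes shifted by -0.28 in control against wild type. On that scale 8 of the 10 genes were called lower, with Olfml3 (log2 fold change -0.42, limma adjusted p = 0.0162), Sparc (-0.39, limma adjusted p = 0.0348) and Golm1 (-0.55, limma adjusted p = 0.00595) added to the 5. Relative to the median shift these 3 stood at -0.14, -0.11 and -0.27. Calls over all genes were 687 higher and 3057 lower on that scale, so 18.3% of calls were higher, against 55.6% on the counts. Siglech stood at 0.04 and Fcrls at -0.17 on the TPM scale, neither called.

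Between 5xFAD repopulated and 5xFAD control microglia, 6 of the 10 genes had every repopulated library above every control library: Tmem119, Cx3cr1, Crybb1, Slc2a5, Sparc and Selplg. This separation was found for 15% of the genes tested. Only Tmem119 passed the test in that comparison, and 4 of the 10 were higher at an unadjusted p under 0.05 (edgeR). DESeq2 called 3 higher and limma-voom 2. The median log2 fold change was 0.23 over the 10 genes and 0 over all genes tested. Calls over all genes in repopulated against control were 62% higher on the counts and 89.7% higher on the TPM scale.

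Between 5xFAD repopulated and wild-type microglia, Cx3cr1 and Crybb1 were the 2 genes called lower, where 4.18% of all genes tested were called, 0.784% lower and 3.4% higher (98 and 425 genes). No gene of the 10 was called higher by edgeR or DESeq2, and none was higher at an unadjusted p under 0.05. In 3 genes, Tmem119, Cx3cr1 and Crybb1, every repopulated library lay below every wild-type library, as in 6.82% of the genes tested, and in 0 of the 10 every repopulated library lay above, as in 9.13%. The call for Crybb1 held in all 23 alternatives (adjusted p 7.43e-09 to 0.00934). With the offset for GC content and length Tmem119 was called lower too (log2 fold change -0.46, edgeR adjusted p = 0.0198). Over all genes 81.3% of these calls were higher on the counts and 50.3% on the TPM scale.

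**Figure D2:**
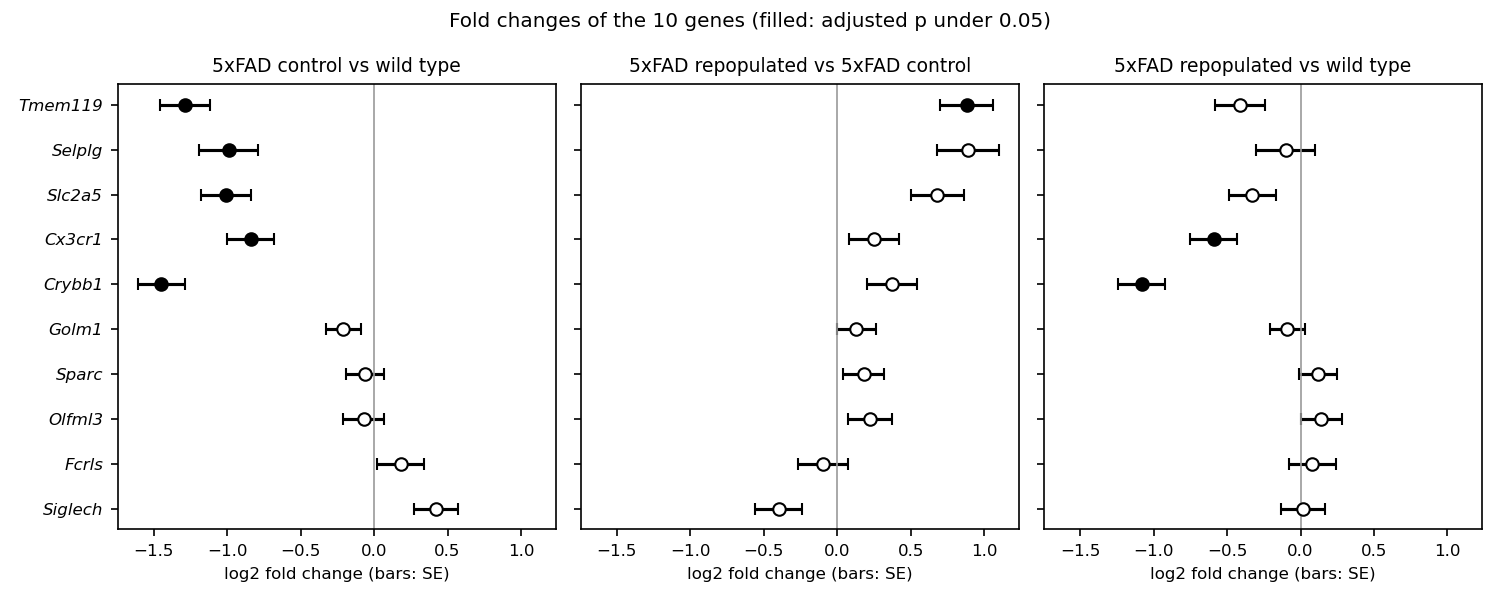
Log2 fold changes of the 10 genes (points) with their standard errors (whiskers) in the 3 comparisons, from edgeR's quasi-likelihood fit; filled points have an adjusted p under 0.05. Filled points are 5 in control against wild type, 1 in repopulated against control and 2 in repopulated against wild type.

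The share of the 5xFAD loss regained after repopulation was computed for the 5 genes that fell, as the difference of repopulated from control over that of wild type from control on the log2 scale. It was 89.8% for Selplg (95% interval 54.6% to 140%), 68.3% for Tmem119 (44.8% to 96.2%) and 67.3% for Slc2a5 (36.8% to 104%). It was 29.8% for Cx3cr1 (-15.9% to 66.8%) and 25.5% for Crybb1 (0.794% to 46.6%). The median over the 5 genes was 67.3%. The intervals are Fieller intervals from limma on log2 CPM.

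Of the 5 intervals, 4 lay above 0, the exception being Cx3cr1, and 3 lay below 100%, those of Tmem119, Cx3cr1 and Crybb1. These intervals are not adjusted for the number of genes tested. Of the 5 genes, only Tmem119 passed the test in repopulated against control (edgeR adjusted p = 0.0468). On linear mean CPM the shares were 86.3% for Selplg, 58.2% for Tmem119, 59.4% for Slc2a5, 24% for Cx3cr1 and 16.9% for Crybb1. On linear TPM they were 69.6%, 49.4%, 49.3%, 25% and 18.6% for the genes in that order. The control libraries enter both differences of each share, and differences between the genes' shares were not tested. The 5 genes were also chosen for a called fall between these same control and wild-type libraries. The effect of that choice on the shares was not tested. With 1 library left out the share ran from 86.1% to 97.1% for Selplg, 63.6% to 75.3% for Tmem119, 61.1% to 73.9% for Slc2a5, 26.8% to 35.2% for Cx3cr1 and 19.6% to 32.3% for Crybb1. The share of Cx3cr1 was 10.3% with the Y-linked term and 18.9% with the GC and length offset, and that of Crybb1 was 15.3% with the offset.

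**Figure D3:**
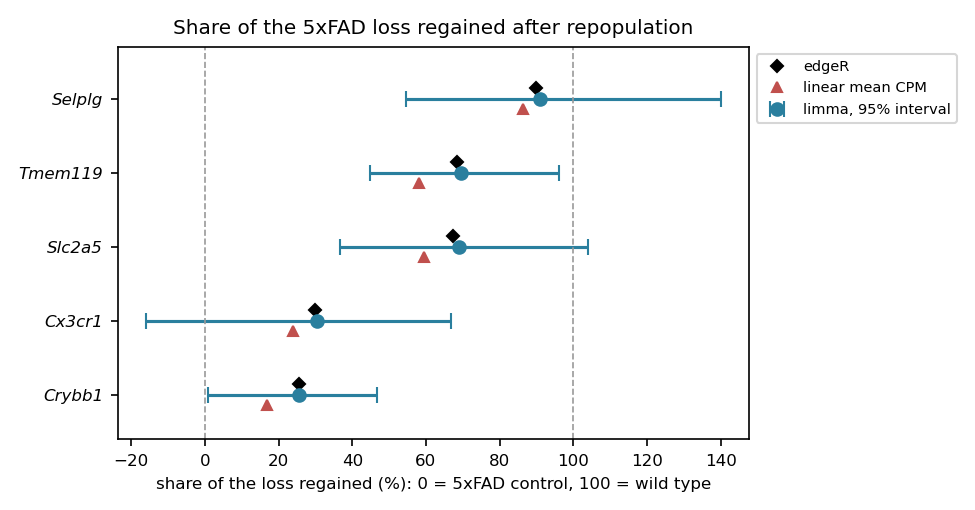
Share of the 5xFAD loss regained (horizontal axis, %, with dashed lines at 0 for 5xFAD control and 100 for wild type) for the 5 genes that fell, from edgeR (diamonds), limma with its 95% interval (circles and whiskers) and linear mean CPM (triangles). Selplg, Tmem119 and Slc2a5 lie at 67.3% or more by edgeR, and Cx3cr1 and Crybb1 at 29.8% or less.

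Ordered by TPM, a level per transcript length, the 10 genes ran in wild-type microglia as Selplg (4239.8 ± 720 TPM), Fcrls (2533 ± 303), Siglech (2507 ± 447), Sparc (2274 ± 356), Olfml3 (1836 ± 152), Tmem119 (1478 ± 387), Cx3cr1 (802 ± 208), Slc2a5 (589 ± 154), Golm1 (484 ± 71.0) and Crybb1 (319 ± 64.5; SD, n = 4). Of the neighbours in that order, the libraries separated for Selplg and Fcrls, for Tmem119 and Cx3cr1 and for Golm1 and Crybb1, and overlapped for the others. In 5xFAD control microglia Siglech came first (2577 ± 420 TPM, n = 3) and Selplg stood after Fcrls and Sparc (1690.3 ± 510), with overlap between Siglech and Fcrls and between Selplg and both its neighbours. In repopulated microglia Selplg was first again (3465 ± 88.4 TPM, n = 3), ahead of Fcrls (2349 ± 65.6), and Crybb1 was last in every group (134 ± 22.3 in repopulated, 92.4 ± 7.99 in control). Among all 19782 genes Selplg ranked between 17 and 89 by TPM over the 10 libraries, Siglech between 31 and 44, Tmem119 between 44 and 319 and Crybb1 between 314 and 1513.

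Across the 10 libraries the 10 pairs among the 5 fallen genes had Pearson's r of 0.68 to 0.97 on log2 CPM, highest for Tmem119 with Slc2a5 (0.97) and for Cx3cr1 with Crybb1 (0.94). These values hold the group differences. After each group's mean was subtracted the same pairs ran from 0.22 to 0.82. Pairs among the other 5 genes ran from -0.66 to 0.49 across the libraries and from -0.69 to 0.7 after subtraction. Siglech ran against the set, with r of -0.90 to Selplg and -0.72 after subtraction of group means. Fcrls and Selplg showed r of 0.09 across libraries and 0.91 after subtraction. All are descriptions over 10 libraries that share a depth scaling.

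**Figure D4:**
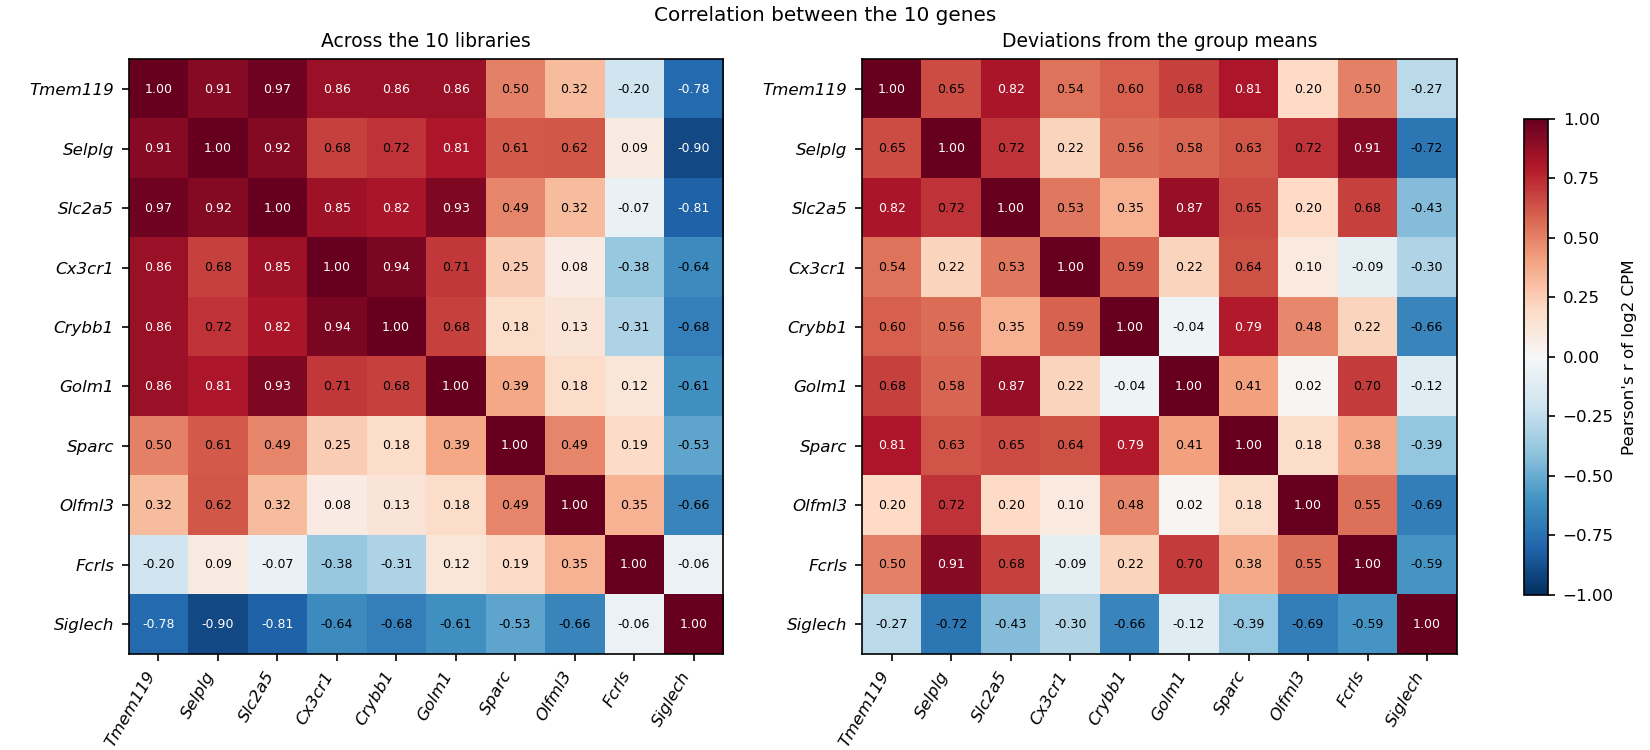
Pearson's r of log2 CPM between the 10 genes, across the 10 libraries (left) and after subtraction of each group's mean (right); red is positive and blue negative. The 5 genes at upper left vary together at 0.68 to 0.97, and Siglech in the last row is negative with all 9 others across the libraries.

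Of 3395 other genes with a mean of at least 50 CPM, the 5 whose log2 CPM was most like the mean z-score of the 10 genes over the 10 libraries were Unc93b1 (r = 0.984), Slc29a1 (0.983), Csf1r (0.978), Cnpy3 (0.973) and Cyb561a3 (0.968). Unc93b1 carries nucleic acid-sensing Toll-like receptors to endosomes and Csf1r encodes the receptor that PLX3397 inhibits. Csf1r had 3715 ± 148 CPM in repopulated, 2608 ± 463 CPM in control and 3984 ± 715 CPM in wild-type libraries. Since these 5 genes were chosen for following a mean that is lowest in the control libraries, their log2 fold changes of -0.61 to -1.04 in control against wild type, and of 0.51 to 0.79 in repopulated against control, are a description of that choice.

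Tmem119 and Selplg lie side by side on chromosome 5, 17401 bases apart with no protein-coding gene between them. Of the nearest protein-coding genes outside the pair, Ssh1 fell in control against wild type (23.1 ± 3.61 CPM in control and 36.3 ± 3.29 CPM in wild type; the log2 fold change was -0.65, SE 0.15, edgeR adjusted p = 0.00862). Sart3, Iscu and Coro1c did not pass in that comparison, with log2 fold changes of 0.05, -0.42 and 0.45 (edgeR adjusted p = 0.87, 0.146 and 0.089).

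In a wider list of 60 other homeostatic microglial genes, 21 fell and 5 rose in control against wild type, 1 rose in repopulated against control, and 3 rose and 3 fell in repopulated against wild type. The median log2 fold changes of the 60 genes were -0.22, 0.15 and -0.12. Of all genes tested, 8.04% were lower and 10.1% higher in control against wild type, and 0.352% were higher in repopulated against control. In repopulated against wild type 3.4% were higher and 0.784% lower. This list of 60 genes was chosen with earlier results of these data known, so its counts are a description. Ecscr, a membrane protein also made by endothelium, averaged 111 ± 20.7 CPM in control and 259 ± 23.3 CPM in wild-type libraries (log2 fold change -1.22, edgeR adjusted p = 6.39e-05). Cmtm6, a membrane protein of the MARVEL family, averaged 318 ± 56.0 and 654.5 ± 59.4 CPM in control and wild-type libraries (log2 fold change -1.04, edgeR adjusted p = 0.00015).

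Among the same list, Gpr165, an orphan receptor, averaged 1.49 ± 0.422 CPM in control and 11.4 ± 2.29 CPM in wild-type libraries (log2 fold change -2.93, edgeR adjusted p = 0.000201), and Il6ra, the interleukin-6 receptor alpha chain, averaged 38.7 ± 6.09 CPM in control and 94.0 ± 20.2 CPM in wild type (edgeR adjusted p = 0.000436). Both fell. Among those that rose, Serpine2, a serine protease inhibitor, averaged 3024 ± 770.0 CPM in control and 1250.1 ± 72.7 CPM in wild type, and Tyrobp, the signalling adaptor of TREM2, averaged 1786 ± 493 and 717 ± 122 CPM (edgeR adjusted p = 0.000125 and 0.000223). The single call in repopulated against control was Il10ra, the interleukin-10 receptor alpha chain. It averaged 191.6 ± 34.3 CPM in repopulated, 100.1 ± 22.1 CPM in control and 192 ± 31.4 CPM in wild-type libraries. Its log2 fold change for repopulated against control was 0.94 (SE 0.19, edgeR adjusted p = 0.0457). That call lay close to the threshold and was lost without repopulated 2, where no gene was called in this comparison. It was also lost with the term for Y-linked transcript status, where no gene was called higher in this comparison. P2ry6, a UDP receptor of microglia, was 0.52 higher on the log2 scale in repopulated against control without passing (edgeR adjusted p = 0.0742) after a fall in control against wild type (log2 fold change -0.64, edgeR adjusted p = 0.00219).

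Beside the homeostatic genes, 34 of 35 disease-associated genes rose in control against wild type, with a median log2 fold change of 2.79. In repopulated against control 3 of the 35 fell (median -0.37), and 33 were still higher in repopulated than in wild-type microglia (median 2.33). The shares over all genes tested were 10.1% higher in control against wild type, 0.216% lower in repopulated against control and 3.4% higher in repopulated against wild type. The list was chosen with earlier results of these data known, so its counts are a description. Igf1, a growth factor gene of that state, averaged 127 ± 27.8 CPM in repopulated, 374 ± 7.55 CPM in control and 5.31 ± 2.09 CPM in wild-type libraries. Ank, a phosphate and citrate transporter, averaged 324 ± 11.5, 376 ± 75.6 and 25.0 ± 4.82 CPM in the same order.

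The label of the sorted cells was checked against markers of other cell types. Summed CPM over 9 astrocyte genes was 249 to 253 in repopulated, 240.2 to 259 in control and 231 to 593 in wild-type libraries, led by Slc1a3 (204, 205 and 276 CPM on average). The 593 CPM was that of wild-type 3, and the other wild-type libraries had 231 to 317 CPM. Genes of border macrophages, led by Stab1, summed to 234 to 269.7, 214 to 289.7 and 221 to 441 CPM, and monocyte genes, led by Ccr2, to 24.1 to 31.7, 25.2 to 46.5 and 24.5 to 52.3 CPM, in repopulated, control and wild-type libraries. Neuronal genes, led by Snap25, reached 66.7 CPM in wild type against at most 11.1 CPM in repopulated and 8.66 CPM in control libraries. Genes of oligodendrocytes and their precursors, led by Cnp, summed to 78.5 to 87.1 CPM in repopulated, 57.2 to 71.7 CPM in control and 62.9 to 139 CPM in wild-type libraries, so the repopulated libraries lay above the control libraries. Endothelial genes, led by Pecam1, summed to 39.9 to 48.2, 40.3 to 46.9 and 25.7 to 45.2 CPM in repopulated, control and wild-type libraries, and lymphocyte genes, led by Cd79b, to 40.8 to 50.5, 42.9 to 60.03 and 52.8 to 80.2 CPM. Mural genes stayed at 2.07 CPM or less in every library. Neutrophil genes, led by S100a8, varied within every group, with 67.5 to 175, 19.4 to 337 and 32.8 to 260.3 CPM in repopulated, control and wild-type libraries. They were lowest in control 1, control 3 and wild-type 2 (19.4, 25.9 and 32.8 CPM), the libraries near absent in Y-linked transcripts. Control 2 had the highest sum, 337 CPM. Erythrocyte genes, led by Hba-a1, summed to 281 CPM in wild-type 3 and at most 20.7 CPM in the other wild-type libraries. They reached at most 1.86 CPM in repopulated and 5.14 CPM in control libraries. A list of 20 early-response genes that tissue dissociation can induce summed to 401 to 459.9 CPM in repopulated, 333 to 375 CPM in control and 417 to 473 CPM in wild-type libraries. The lower control sum came with Btg2, the most abundant of them, which averaged 179.6 ± 17.4 CPM in repopulated, 93.3 ± 16.6 CPM in control and 195 ± 8.58 CPM in wild-type libraries. The sums of the other 19 genes overlapped, at 241.7 to 269.7, 246 to 265.6 and 218 to 271 CPM in repopulated, control and wild-type libraries. The part of Btg2, and of the oligodendrocyte genes, in the values of the 10 homeostatic genes was not tested.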

How the data were processed

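Per the labels, 10 RNA libraries of CD45low CD11b+ hippocampal microglia were made by Smart-Seq. The authors deposited 1 table with estimated counts, FPKM and TPM for each gene and library; FPKM were not used. Per the file headers, the deposited values named read counts are unscaled; 20.1% of the nonzero ones are not whole numbers (tolerance 0.001), so they are treated as estimated (expected) counts. The deposited TPM are scaled for length and library size per the file headers, so a shift in a few abundant genes can move them. HISAT, Bowtie2 and build GRCm38.p6 are named in the submitters' processing notes; which tool counted reads is not given in the sources used here, nor is any version. Reads shared by similar genes may have been split between them.

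Estimated counts were rounded, and edgeR 4.0.16 under R 4.3.3 was used for the tests (filterByExpr, TMM, robust quasi-likelihood fit of the 3 group means over all 10 libraries, Benjamini-Hochberg adjustment over 12505 genes at 0.05, prior count 0.125). The biological coefficient of variation was 27.3%. An SE is the size of the log2 fold change divided by the square root of its F. CPM are TMM-scaled. Fieller intervals for the share regained used limma 3.58.1 on log2 CPM (prior count 2). The fits were tested on simulated data. Replicates all differed from each other beyond sampling noise.

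Genes were matched by Entrez identifier to RefSeq on GRCm38.p6 (19725 of 19782), from which coordinates and promoter sequences came; GC content and length of the longest GENCODE transcript were found for 18974. The 10 genes and all lists were chosen with earlier results of these data known. Beside the 10, genes are named by rule: of the other homeostatic genes the 6 smallest p in control against wild type and the 3 smallest in repopulated against control, of the disease-associated genes the 2 smallest, the most abundant gene of each marker list, the 5 most alike genes, and neighbours of adjacent members. Alternatives were DESeq2 1.42.0, limma-voom, other normalisations, filters and prior counts, a replicate block, the compared groups alone, other thresholds, an offset for GC content and length, each library left out, and settings for Y-linked transcripts (4 genes, threshold 50 CPM).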

Additional observations from a re-analysis of the deposited data

How the results depend on the processing

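Of 690 fold changes of the 10 genes under alternatives, 654 kept their direction or their lack of a call, 16 passed the threshold that they had missed, 20 no longer passed, and no called one changed sign. The 5 genes lower in control against wild type were 5 under all 23 alternatives on counts and 8 on log2(TPM + 1) (chosen after seeing the data). Genes higher in repopulated against control (1) were 0 with a replicate block, a threshold of 0.01, a Y-linked term or the GC and length offset, 2 without a filter, with limma-voom, without the 3 libraries near absent in Y-linked transcripts or on TPM, 3 with DESeq2, the compared groups alone or a threshold of 0.1, and 0 to 3 with 1 library left out. Genes lower in repopulated against wild type (2) were 1 with the block, the compared groups alone, a threshold of 0.01 or without those 3 libraries, 3 with the GC and length offset, and 1 to 2 with 1 library left out. The median share regained ran from 49.3% to 73.9%.

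Genes called in control against wild type (2265) numbered 1464 with the block, 1037 at 0.01, 1202 without those 3 libraries, 3744 on TPM and 1315 to 2910 with 1 library left out. In repopulated against control (71) they numbered 166 without a filter, 125 at 5 CPM or with limma-voom, 694 with DESeq2, 25 with the block, 630 for the compared groups alone, 4 at 0.01, 355 at 0.1, 1 with the Y-linked term, 388 without those 3 libraries, 146 on TPM and 0 to 328 with 1 library left out, the 0 being without repopulated 2, where 1322 genes had an unadjusted p under 0.05 (edgeR). In repopulated against wild type (523) they numbered 799 with DESeq2, 256 at 0.01, 289 without those 3 libraries and 284 to 688 with 1 library left out. The causes were not tested. Replicate numbers showed no sign of pairing the libraries. After each group's mean was subtracted, same-numbered libraries of different groups correlated at -0.10 to 0.07 (9 pairs) and others at -0.11 to 0.13. With groups of 3 or 4 libraries these values cannot exclude pairing. Under the block Tmem119 in repopulated against control had an edgeR adjusted p of 0.0791.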
